A study of Homo sapiens with 6 samples.

Results

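The 33 protein-coding genes of the nuclear pore complex were followed in HCT116, a human colorectal carcinoma cell line, after 16 h of auxin or with DMSO, the solvent control. They were chosen by symbol from the 58780 genes of the deposited tables. The choice took each protein-coding gene named NUP with a number, and NDC1, POM121, POM121C, TPR, RANBP2, SEH1L, SEC13, AAAS, RAE1, NUPL2, GLE1 and AHCTF1. RNA of 6 libraries was sequenced, 3 biological replicates with auxin and 3 with DMSO, all from the same line. Auxin is a plant hormone that is used in human cells to deplete a protein fused to a degron. The labels give neither the protein that auxin acts on here nor a tagged allele, a clone or an auxin dose, and no library of unmodified cells with auxin was analysed here. An effect of auxin itself and an effect of losing a protein cannot be told apart.

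The nuclear pore complex is the channel through which proteins and RNA cross the nuclear envelope. Its scaffold consists of outer rings, built from the Y complex, and an inner ring, which membrane nucleoporins anchor where the inner and outer nuclear membranes meet. Nucleoporins rich in phenylalanine-glycine repeats fill the channel, bind the transport receptors that carry cargo and hold other large molecules back. Filaments on the cytoplasmic face finish the export of mRNA and receive Ran, the small GTPase that gives transport its direction, and a basket hangs from the nuclear face.

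Total expected counts, the estimated numbers of fragments per gene, were between 234037969 and 625895062 per library. Replicate 1 of both groups was the deepest library of its group and stood apart from replicates 2 and 3 on the second principal component. Values below are in CPM, the count of a gene scaled to the total of its library with edgeR's TMM factors, unless another unit is named. All 6 colorectal epithelial markers tested (EPCAM, KRT8, KRT18, KRT19, CDH1 and CDX2) were called higher with auxin, beside 27.8% of protein-coding genes. Their log2 fold changes were 0.29 to 0.56. VIL1 was below the filter on low counts at no more than 0.0448 CPM in any library. Of 4 leukocyte, 2 hepatocyte, 3 endothelial, 3 fibroblast and 3 muscle markers, none passed 1 CPM except COL1A1, at 1.21 to 5.14 CPM.

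Transcripts of NUP85, NUP98, NUP58 and NUP88 that differ in structure took different shares of their genes with auxin, and the bases in which they differ are shown first because the results below refer to them. NUP85-201 has an exon that NUP85-210 lacks. It is exon 8, on the plus strand of chromosome 17 (GRCh38) from 75225103 to 75225237. Its 135 bases lie within the coding sequence and their number is a multiple of 3. The capitals mark the exon, and the lower-case letters are the adjoining ends of exons 7 and 9.
NUP85 exon 8: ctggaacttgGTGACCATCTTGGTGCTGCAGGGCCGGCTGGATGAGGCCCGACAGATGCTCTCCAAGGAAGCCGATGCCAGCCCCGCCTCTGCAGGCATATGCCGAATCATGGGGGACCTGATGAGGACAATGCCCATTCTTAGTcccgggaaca
NUP98-203 has an exon that NUP98-202 lacks, exon 29, on the minus strand of chromosome 11 from 3685973 to 3686194. It holds 222 coding bases, again a multiple of 3, shown in capitals between the ends of its neighbours. NUP98-201, the main coding transcript of the gene, has this exon too.
NUP98 exon 29: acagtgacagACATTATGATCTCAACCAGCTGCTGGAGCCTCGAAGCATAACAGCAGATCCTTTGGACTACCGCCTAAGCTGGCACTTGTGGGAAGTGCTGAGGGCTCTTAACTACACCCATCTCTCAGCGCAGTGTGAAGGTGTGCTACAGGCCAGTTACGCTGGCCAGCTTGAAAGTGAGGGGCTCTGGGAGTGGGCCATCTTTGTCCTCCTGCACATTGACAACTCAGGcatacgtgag
NUP58-206 and NUP88-210 read on past a 5′ splice site that NUP58-202 and NUP88-207, respectively, use, and end within the intron. The lines below give the last 10 exonic bases in lower case and the first 20 intronic bases in capitals, with GT as the first intronic bases in both. They lie on the plus strand of chromosome 13 from 25331549 to 25331578 and on the minus strand of chromosome 17 from 5388782 to 5388811.
NUP58 end of exon 13: cctgctacagGTCTGAACGCATTCAAGTTA
NUP88 end of exon 11: catttttgaaGTATGCAACCTTGGGCATAG

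In 26 of 33 nucleoporin genes the level with auxin lay within 1.5-fold of that with DMSO, and a few genes fell steeply. AAAS fell 9.48-fold, NUP188 fell 4.94-fold, NUP85 fell 3.20-fold and NUP210 fell 2.37-fold. The highest rise among called genes was that of RAE1, 1.49-fold. All 33 genes passed the filter on low counts. By edgeR's quasi-likelihood test with Benjamini-Hochberg adjustment over all 19725 genes tested, 17 of 33 (51.5%) were called at an adjusted p under 0.05, against 52.3% of all genes and 61.2% of protein-coding genes. Called lower were 12 (36.4%), against 26.9% of all and 33.4% of protein-coding genes. Called higher were 5 (15.2%), against 25.4% and 27.8%. Calls at 2-fold lower numbered 4 (12.1%), against 13.3% and 16.0%, and 2 of them reached 4-fold (6.06%), against 4.9% and 6.36%. Calls at 2-fold higher numbered 0, against 6.55% of all genes and 4.8% of protein-coding genes. The median log2 fold change was -0.08 over the nucleoporin genes, 0.02 over all genes and -0.01 over protein-coding genes. The share called in either direction was within 1 point of that of all genes and below the 61.2% of protein-coding genes. The share called lower was above that of all genes and of protein-coding genes, and the share called higher was below both. These differences in share were not tested.

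The CPM of the auxin and DMSO libraries did not overlap for 19 of 33 genes (57.6%), against 60.3% of all genes tested. In 12 the auxin libraries were below (30.4% of all genes) and in 7 above (30.0%). With the replicate number as a block, 9 nucleoporin genes were called higher (27.3%, against 35.5% of all genes in that fit) and 17 lower (51.5%, against 34.4%). The calls gained were NUP160, NUP93, NUP214 and NUP210L (higher) and NUP37, NUP54, POM121, NUP62 and POM121C (lower), of which the last 3 were called higher with GC-corrected offsets. On TPM, a level per transcript length, limma called 0 higher and 7 lower, and 1 was higher and 11 lower at an unadjusted p under 0.05. Higher calls made up 48.5% of all calls with TMM factors, 59.7% with upper-quartile factors and 24.6% on log2(TPM + 1). Upper-quartile factors moved the median of all genes by 0.12 on the log2 scale, and log2(TPM + 1) by -0.14.

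**Figure D1:**
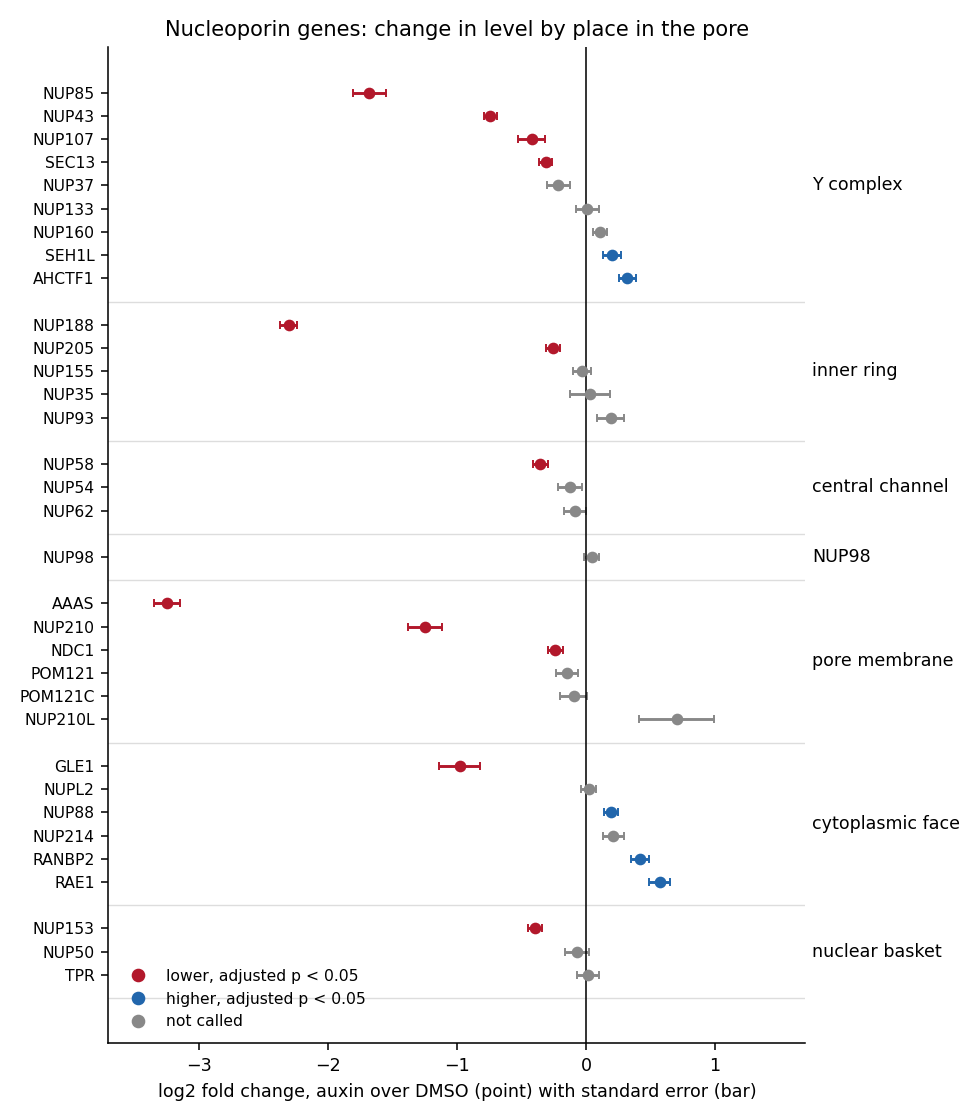
Log2 fold change of the 33 nucleoporin genes, auxin over DMSO (point) with its standard error (bar), grouped by place in the pore; red and blue mark genes called lower and higher at an adjusted p under 0.05, grey those not called. AAAS, NUP188, NUP85 and NUP210 lie left of -1, and most other genes lie between -0.5 and 0.5.

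Per length, NUP93, a linker of the inner ring, had the highest mean level in both groups. Its TPM was 142, 102 and 112 in DMSO replicates 1, 2 and 3 and 126, 110.4 and 131 in the auxin replicates, so the groups overlapped. In CPM it was 0.19 ± 0.11 higher on the log2 scale (standard error, adjusted p = 0.173), and adjusted p = 0.000813 with the replicate block. NUP210L, a relative of NUP210 that is known from the testis, had the lowest level, 0.02 to 0.04 TPM with DMSO and 0.04 to 0.05 TPM with auxin. Its log2 fold change of 0.70 ± 0.29 was not called (adjusted p = 0.08), and was called with the block (adjusted p = 0.0197), at no more than 0.307 CPM in any library.

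The other 32 genes ran from 118.6 TPM for NUP93 to 11.5 TPM for NUP214, a component of the cytoplasmic filaments. In DMSO, 30 of the 32 pairs of neighbours in this order overlapped in the range of their 3 libraries, and with auxin 29 did. With DMSO, only NUP35 against NUP214 and NUP214 against NUP210L were apart. AAAS was at 21.6 TPM with DMSO and 2.33 TPM with auxin, and NUP188 at 56.7 and 10.95 TPM. The summed TPM of the nucleoporin genes was 2006, 1354 and 1468 in DMSO replicates 1, 2 and 3 and 1441, 1177 and 1316 in the auxin replicates. The ranges overlapped, and the sum was lower with auxin in each of the 3 pairs of the same number. In CPM the sums were 5379, 5339 and 5616 with DMSO and 4825, 5109 and 5217 with auxin, without overlap and again lower in each pair. Single genes weigh heavily in these sums. On average NUP188 fell from 270 to 54.7 CPM and RANBP2 rose from 575 to 768 CPM. Log2 fold changes were below 0 in 19 of the 33 genes and above 0 in 14.

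**Figure D2:**
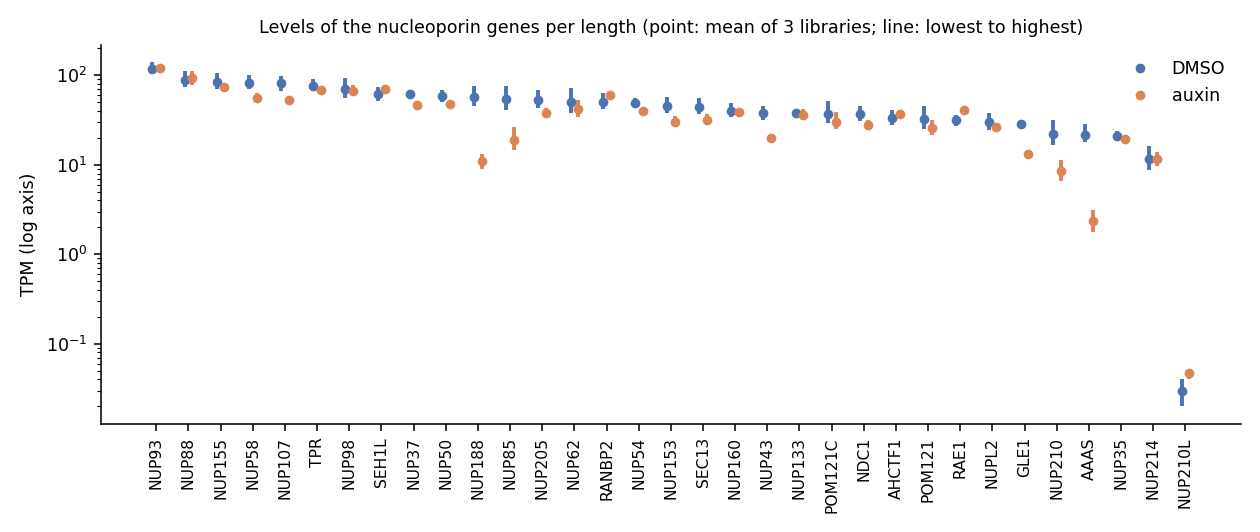
TPM of each nucleoporin gene on a log axis, ordered by its mean with DMSO (blue) beside auxin (orange); points are means of 3 libraries and lines run from the lowest to the highest. The DMSO ranges of neighbours overlap nearly throughout, and AAAS and NUP188 with auxin lie well below their DMSO ranges.

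Among the membrane nucleoporins, AAAS changed most. It encodes ALADIN, a protein of the pore membrane region that is mutated in the syndrome of achalasia, adrenal insufficiency and lack of tears. AAAS (ENSG00000094914.12, minus strand of chromosome 12, 53307456 to 53324864) was at 32.0, 29.02 and 27.9 CPM in DMSO replicates 1, 2 and 3. It was at 3.41, 2.87 and 3.10 CPM in the auxin replicates. All 3 auxin libraries were far below the lowest DMSO library. This is a log2 fold change of -3.25 ± 0.10 (standard error, adjusted p = 1.99e-06, edgeR).

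NUP210 encodes a glycoprotein that spans the pore membrane (ENSG00000132182.11, minus strand of chromosome 3, 13316235 to 13420309). Its level was 177, 138 and 145 CPM with DMSO and 74.8, 57.1 and 61.6 CPM with auxin. Replicate 1 was the highest library of each group, and the groups did not overlap. On the log2 scale the change was -1.25 ± 0.13 (adjusted p = 0.000223). NDC1, a transmembrane anchor to which ALADIN binds, fell from 173 ± 6.11 to 147 ± 4.13 CPM (SD, n = 3 each), by 0.24 on the log2 scale (adjusted p = 0.0102, edgeR). The call of NDC1 was lost in 4 of 19 other settings, among them the fit without DMSO replicate 3 (adjusted p = 0.0502). Over all these edgeR, DESeq2 and limma fits its adjusted p reached 0.183. POM121 and POM121C, near-identical membrane nucleoporins between which reads may be split, had log2 fold changes of -0.15 and -0.09 and were not called. Both were called lower with the replicate block (adjusted p = 0.00358 and 0.0329) and higher with offsets corrected for GC content, at 0.23 and 0.21.

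The inner ring held the second steep fall. NUP188, a large scaffold protein that sits in the ring in alternation with NUP205, lies on the plus strand of chromosome 9 from 128947699 to 129007096 (ENSG00000095319.14). It was at 284, 254 and 273 CPM with DMSO and at 56.1, 52.7 and 55.3 CPM with auxin. The libraries of a group lay close together, and the groups were far apart. This is a log2 fold change of -2.31 ± 0.07 (adjusted p = 1.99e-06, edgeR).

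NUP205, the related scaffold protein, fell from 175 ± 4.32 to 147 ± 4.95 CPM, by 0.26 on the log2 scale (adjusted p = 0.0068, edgeR, n = 3 each). The standard errors of the changes of NUP188 and NUP205 were 0.07 and 0.06, and the difference between the 2 genes was not tested. NUP155 and NUP35, the other ring members beside NUP93, had log2 fold changes of -0.03 and 0.03 and were not called. In all, 2 of 5 inner-ring genes (40.0%) were called lower and 0 higher, against 33.4% and 27.8% of protein-coding genes.

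The Y complex, named for its shape, is the building block of the outer rings. Of the 9 genes grouped with it here, 4 (44.4%) were called lower and 2 (22.2%) higher, against 33.4% and 27.8% of protein-coding genes. The NUP98 gene, whose transcripts also encode NUP96, was grouped apart. NUP85, in a short arm of the Y, lies on the plus strand of chromosome 17 from 75205659 to 75235758 (ENSG00000125450.10). It was at 71.6, 58.4 and 61.3 CPM with DMSO and at 23.4, 17.4 and 18.9 CPM with auxin. The highest auxin library was below all DMSO libraries. The log2 fold change was -1.68 ± 0.13 (adjusted p = 5.15e-05, edgeR).

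NUP43, a propeller-shaped protein bound to NUP85 (ENSG00000120253.13, minus strand of chromosome 6, 149724315 to 149749665), was at 107, 103 and 109 CPM with DMSO. With auxin it was at 64.2, 63.8 and 62.9 CPM. The 3 auxin libraries hardly differed from each other, and none reached the DMSO values. On the log2 scale the change was -0.74 ± 0.05 (adjusted p = 2.78e-05, edgeR).

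NUP107, in the stem of the Y (ENSG00000111581.9, plus strand of chromosome 12, 68686734 to 68745809), was at 148, 160.2 and 183 CPM with DMSO and at 108, 126 and 132 CPM with auxin. The gap between the groups was narrower than the spread within either, but the ranges did not overlap. The log2 fold change was -0.42 ± 0.11 (adjusted p = 0.0127, edgeR). SEC13, which also serves the COPII coat of secretory vesicles, fell by 0.31 on the log2 scale, from 53.0 ± 1.35 to 42.7 ± 0.869 CPM (adjusted p = 0.00171, edgeR, n = 3 each).

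AHCTF1 and SEH1L were the Y-complex genes called higher. AHCTF1 encodes ELYS, which brings the Y complex to chromatin as nuclei form again after mitosis (ENSG00000153207.15, minus strand of chromosome 1, 246839098 to 246931967). It was at 256, 259.8 and 275 CPM with DMSO and at 309, 346 and 332 CPM with auxin, without overlap. This is a log2 fold change of 0.32 ± 0.07 (adjusted p = 0.00591, edgeR).

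SEH1L, whose protein also belongs to a regulator of nutrient signalling, lies on the plus strand of chromosome 18 from 12947133 to 12987536 (ENSG00000085415.15). It was at 121, 122 and 133 CPM with DMSO and at 135, 148 and 149 CPM with auxin. The groups came close together, with auxin replicate 1 just above DMSO replicate 3. The log2 fold change was 0.20 ± 0.07 (adjusted p = 0.0409, edgeR), and the call was lost in 12 of 19 other settings. Among them were the fits without DMSO replicate 1, 2 or 3 and without auxin replicate 2 or 3 (adjusted p = 0.128, 0.174, 0.0598, 0.13 and 0.136). NUP37, NUP133 and NUP160 were not called, at log2 fold changes of -0.22, 0.01 and 0.11. NUP37 and NUP160 were called with the replicate block (adjusted p = 0.000138 and 0.0119).

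As the genes were grouped here, the cytoplasmic face was the only place with more genes called higher than lower, 3 (50.0%) against 1 (16.7%) of 6. This count depends on the grouping, as RAE1 was placed in it and NUP98, which RAE1 binds, was kept apart. Of protein-coding genes, 27.8% were called higher and 33.4% lower. Among the 3 higher calls, that of NUP88 was lost in 11 of 19 other settings. Whether the cytoplasmic face differs from the rest of the pore was not tested. RAE1, an mRNA export factor that binds NUP98 (ENSG00000101146.12, plus strand of chromosome 20, 57351010 to 57379211), was at 53.1, 54.6 and 59.2 CPM with DMSO. It was at 74.8, 84.0 and 89.2 CPM with auxin, and all auxin libraries were higher. On the log2 scale the change was 0.57 ± 0.08 (adjusted p = 0.000834, edgeR).

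RANBP2, also called NUP358, forms the cytoplasmic filaments, binds Ran and acts as a SUMO ligase (ENSG00000153201.15, plus strand of chromosome 2, 108719481 to 108785811). Its level was 567, 557 and 600.0 CPM with DMSO and 714, 788 and 802 CPM with auxin. All auxin libraries were above the DMSO range. The log2 fold change was 0.42 ± 0.07 (adjusted p = 0.00226, edgeR). RANBP2 shares most of its sequence with the RGPD genes, so reads may be split between them. RGPD5, RGPD8 and RGPD3 were called higher too, by 0.42, 0.32 and 0.35. Near copies of RANBP2 and of other nucleoporin genes were tested together, 8 in all. Of these 3 were called higher (37.5%, against 25.4% of all genes) and 0 lower (against 26.9%).

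GLE1 was the exception of the cytoplasmic face. It activates the helicase DDX19 that releases mRNA from export factors (ENSG00000119392.14, plus strand of chromosome 9, 128504700 to 128542288). Its level was 75.0, 97.3 and 103 CPM with DMSO and 37.2, 50.0 and 52.3 CPM with auxin. Replicate 1 was the lowest of each group, and the groups did not overlap. On the log2 scale the change was -0.98 ± 0.16 (adjusted p = 0.00189, edgeR).

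NUP88, which anchors NUP214 at the cytoplasmic face, rose from 82.9 ± 3.52 to 94.9 ± 1.91 CPM, by 0.20 on the log2 scale (adjusted p = 0.0195, edgeR, n = 3 each). Its call was lost in 11 of 19 settings. They include the fits without DMSO replicate 1 or 2 and without auxin replicate 2 or 3 (adjusted p = 0.0749, 0.0979, 0.06 and 0.0776), and GC-corrected offsets left a log2 fold change of 0.02. NUP88 shares 24850 bases with RABEP1 on the opposite strand, which was called higher by 0.31 (adjusted p = 0.0448, edgeR). Whether counting used the strand is not given in the sources used here, so reads of these genes may not be told apart. NUP214 and NUPL2, a partner of GLE1, had log2 fold changes of 0.21 and 0.02 and were not called, and NUP214 was called with the block (adjusted p = 0.00146).

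In the nuclear basket NUP153, which tethers the basket and binds importins, was called lower (ENSG00000124789.11, minus strand of chromosome 6, 17615035 to 17706834). It was at 244, 233 and 245 CPM with DMSO and at 184, 179.7 and 184 CPM with auxin. The groups were well apart, with little spread in either. This is a log2 fold change of -0.40 ± 0.05 (adjusted p = 0.000715, edgeR). TPR, the main basket filament, and NUP50, which helps to free importin alpha from its cargo, had log2 fold changes of 0.01 and -0.07 and were not called.

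In the central channel, NUP58 fell from 337 ± 10.3 to 264 ± 5.80 CPM, by 0.35 on the log2 scale (adjusted p = 0.00165, edgeR, n = 3 each). NUP54 and NUP62, which form one coiled complex with NUP58, had log2 fold changes of -0.12 and -0.08 and were not called without the block. They were with it (adjusted p = 0.00367 and 0.021), and NUP62 was called higher by 0.35 with GC-corrected offsets. Transcripts of NUP98 encode NUP96 as well as NUP98, a repeat-rich protein of the permeability barrier. NUP98 had a log2 fold change of 0.04 and was not called.

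**Figure D3:**
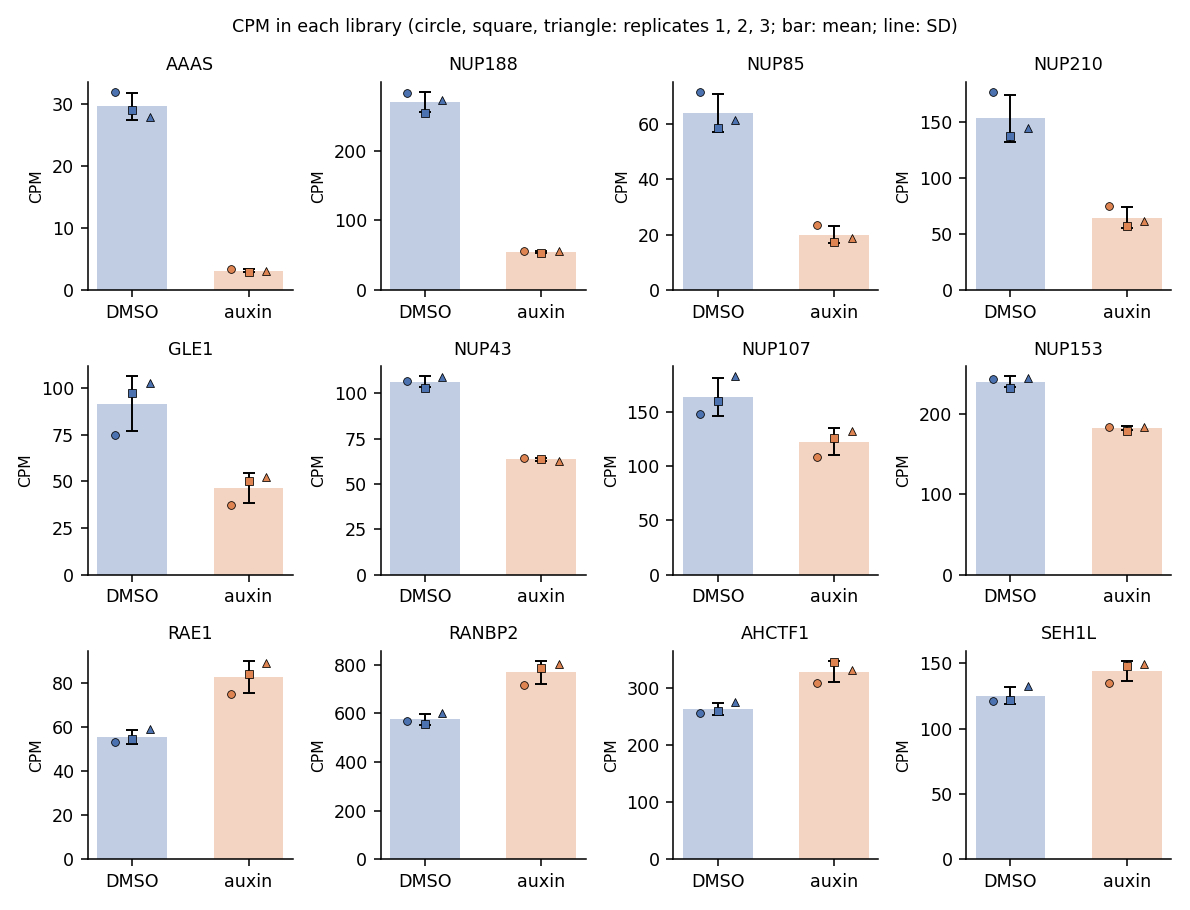
CPM of 12 nucleoporin genes in each library, with DMSO in blue and auxin in orange; symbols mark replicates 1 (circle), 2 (square) and 3 (triangle), bars the mean and lines the SD. The upper 2 rows hold genes called lower, from AAAS to NUP153, and the bottom row RAE1, RANBP2, AHCTF1 and SEH1L, called higher, where the gap is smallest for SEH1L.

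Transcripts within the nucleoporin genes were compared by each transcript's share of the expected counts of its gene. Of 382 transcripts 112, in 26 genes, passed the filters. By limma on the log-odds of the share, adjusted over 51558 transcripts, 12 took a higher and 3 a lower share with auxin, in 7 genes. That is 15 of 112, beside 13.5% of all transcripts tested (8.06% higher and 5.49% lower). The 7 transcripts that were called and moved by 10 points or more, beside 6.16% of all, belong to NUP85, NUP58, NUP88, NUP98 and AAAS.

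NUP85 changed both its level and its transcripts. NUP85-201, the full-length coding form, held 58.8%, 63.1% and 66.0% of the gene's counts with DMSO and 14.8%, 19.9% and 20.9% with auxin. NUP85-210, which skips exon 8, held 26.4%, 23.3% and 23.4% with DMSO and 44.8%, 45.5% and 45.7% with auxin. The long form led in every DMSO library and the skipping form in every auxin library. The differences were -44.1 points (adjusted p = 0.00131, limma) and 20.9 points (adjusted p = 0.00227).

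Over all NUP85 transcripts that include or skip the exon printed above, inclusion by TPM was 70.95% ± 2.16 with DMSO and 38.1% ± 0.367 with auxin (SD, n = 3 each). Exon inclusion was chosen after the values were seen and was not tested. In TPM, both transcripts were lower with auxin, NUP85-201 at 20.9 and 1.67 TPM and NUP85-210 at 9.48 and 4.80 TPM. Of the other called forms, NUP85-220 and NUP85-204 were picked out after their values were seen. NUP85-220 went from 0.397% to 7.41% and NUP85-204 from 0.537% to 6.57% (adjusted p = 0.00104 and 0.00672, limma).

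NUP58 and NUP88 both gained the form that ends in an intron. NUP58-206 held 15.3%, 14.3% and 13.7% with DMSO and 28.0%, 25.8% and 23.4% with auxin, a difference of 11.3 points (adjusted p = 0.00627, limma). NUP58-202, which reads 3 exons further, fell from 84.6% ± 1.04 to 73.3% ± 2.51 (adjusted p = 0.00717). Neither range overlapped between the groups. NUP58-206 reads 4782 bases past the splice site printed above. The shares are of counts and are not scaled by transcript length, so they are not shares of molecules.

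NUP88-210, annotated as a retained intron, held 7.77%, 6.93% and 6.30% with DMSO and 20.5%, 17.8% and 18.6% with auxin, which is 11.97 points more (adjusted p = 0.00213, limma). It ends 426 bases into the intron and lacks the last 6 exons of NUP88-207. Its mean TPM was 3.10 with DMSO and 8.56 with auxin. All coding transcripts of NUP88 together held 73.4% ± 2.06 with DMSO and 60.1% ± 3.93 with auxin, beside the higher total of the gene.

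NUP98 was not called in its total, but the share of NUP98-203 fell. NUP98-203 held 13.9%, 20.3% and 17.3% with DMSO and 1.33%, 0.337% and 4.29% with auxin, which is 15.2 points less on average. The auxin libraries were all below the DMSO libraries but differed widely among themselves. The adjusted p was 0.0452 (limma), and the call was lost in 6 of 12 other settings. These were the replicate block (adjusted p = 0.0702), replicates 2 and 3 only (0.173), and the fits without DMSO replicate 1, 2 or 3 or auxin replicate 1 (0.099, 0.147, 0.136 and 0.112).

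NUP98-203 holds exon 29, printed above, and a 51-base extension of another exon, from 3760488 to 3760538 on chromosome 11. NUP98-201, the main coding transcript, holds exon 29 too, so this exon does not set NUP98-203 apart from it. NUP98-202 lacks exon 29 and the extension, and its share was called higher with auxin (limma). The extension lies in 2 transcripts, so its inclusion does not follow NUP98-203 alone. Inclusion of exon 29 by TPM was 73.8% ± 1.702 with DMSO and 64.9% ± 1.47 with auxin. The longer form of the other exon was at 17.6% ± 1.14 and 9.48% ± 1.11. Neither range overlapped between the groups, and neither value was tested.

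AAAS-220, annotated as a retained intron, starts inside the first intron of AAAS and includes 565 bases of it. Its share was 8.72%, 5.15% and 4.73% with DMSO and 27.8%, 17.6% and 18.7% with auxin (15.1 points more, adjusted p = 0.0181, limma). The groups did not overlap. The call was lost without DMSO replicate 2, DMSO replicate 3 or auxin replicate 3 (adjusted p = 0.0785, 0.0705 and 0.0527). In TPM the same transcript was lower with auxin, at 0.34 against 1.09 on average, beside the 9.48-fold lower total of the gene. The retained-intron transcripts of AAAS together held 8.95% ± 2.85 with DMSO and 34.2% ± 13.0 with auxin.

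**Figure D4:**
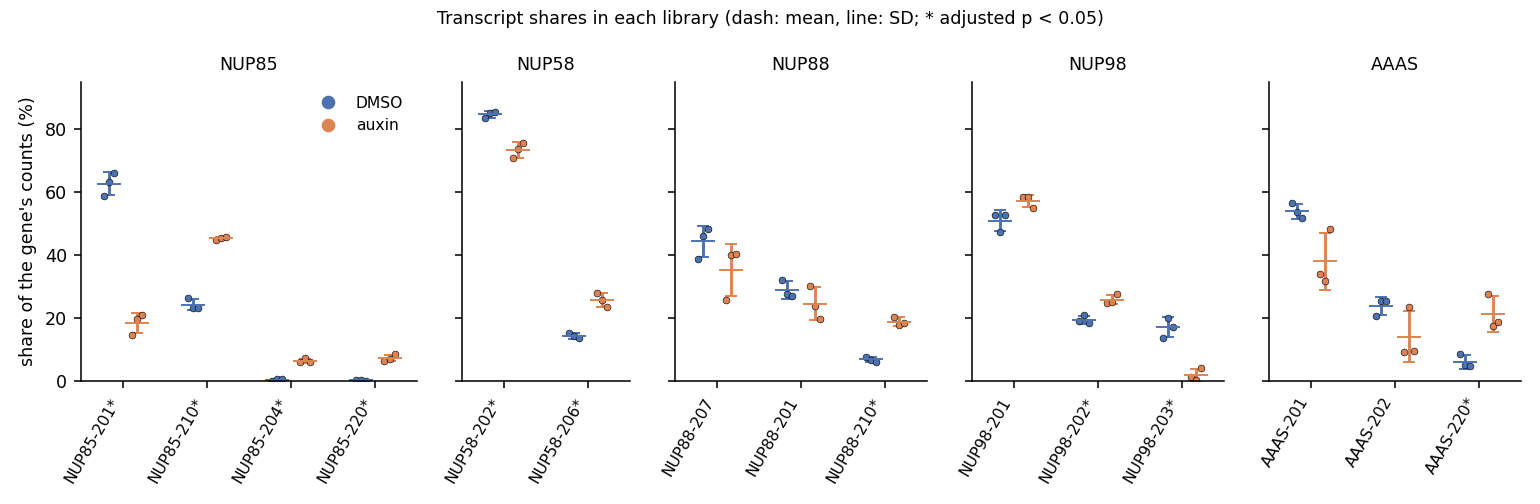
Share of the gene's expected counts held by leading transcripts of NUP85, NUP58, NUP88, NUP98 and AAAS, in percent, for DMSO (blue) and auxin (orange); dots are libraries, dashes means and lines the SD, and an asterisk marks an adjusted p under 0.05. NUP85-201 drops from about 63% to 19% while NUP85-210 gains, and NUP98-203 falls close to 0.

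Forms that end before the last exon of the gene's main coding transcript were viewed as a class after the transcripts had been seen. Among the nucleoporin genes 6 of 31 (19.4%) took a higher share and 0 a lower one. The 6 were AAAS-203, AAAS-204, NUP85-204, NUP85-220, NUP58-206 and NUP88-210. Of the nucleoporin transcripts that reach the last exon, the main ones left out, 6 of 55 (10.9%) took a higher and 1 (1.82%) a lower share. Among all genes 12.6% of such transcripts took a higher and 2.54% a lower share, beside 8.28% and 5.07% of those that reach the last exon. No test was run on this class.

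Across the 33 genes the log2 fold change was lower for genes richer in GC, with Pearson's r = -0.43 and Spearman's rho = -0.26. Over 14154 protein-coding genes rho was -0.36. With the length of the gene r was 0.36 and rho 0.31, and rho over protein-coding genes was 0.20. These points share the same 6 libraries and are given as a description. AAAS has 57.1% GC in its exons, NUP210 58.4% and NUP188 52.5%, and POM121 has 57.7% and NUP62 58.4%. With GC-corrected offsets AAAS, NUP188, NUP85 and NUP210 were called lower, and POM121 and NUP62 were called higher.

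Of 33 transport receptors and Ran-cycle genes, the machinery that uses the pore, 11 were called lower (33.3%) and 10 higher (30.3%), close to the 33.4% and 27.8% of protein-coding genes. Their median log2 fold change was 0.015, beside 0.025 over all genes. TNPO2, an import receptor for RNA-binding proteins, fell from 57.4, 49.7 and 49.4 CPM to 6.38, 5.11 and 5.28 CPM, by 3.22 on the log2 scale (adjusted p = 2.7e-06, edgeR). IPO4, an importer of histones, fell by 2.52 and IPO13 by 1.82. RANGAP1, which triggers GTP hydrolysis by Ran and is held at the pore by RANBP2, fell by 1.46, and IPO9 by 1.27. Of 7 importin alpha genes, which encode adaptors between cargo and KPNB1, 5 were called higher (71.4%) and 0 lower, against 27.8% and 33.4% of protein-coding genes. They were singled out within the list and were not a planned group, and their share was not tested. KPNA1, KPNA3, KPNA4 and KPNA6 rose by 0.41, 0.38, 0.33 and 0.36, and KPNA7 rose by 1.54 at no more than 0.808 CPM in any library. KPNA2, the highest of them in TPM with DMSO, and KPNA5 were not called, at 0.02 and -0.13. The main import receptor KPNB1 and RAN itself were not called, at 0.10 and -0.12, and XPO1, the main export receptor, fell by 0.17 (adjusted p = 0.0482).

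Of 11 proteins that bind the pore 5 were called lower (45.5%) and 1 higher (9.09%), against 33.4% and 27.8% of protein-coding genes, with a median of 0.03. DDX19B, the helicase that GLE1 activates, fell by 0.47, whereas its close relative DDX19A was not called at 0.05. SENP1, a SUMO protease, fell by 0.70 and MCM3AP, the scaffold of an mRNA export complex at the basket, by 0.63, and ENY2 of the same complex rose by 0.43. Of 18 envelope and lamina genes 6 were called lower (33.3%), near the share of protein-coding genes, and 2 higher (11.1%), with a median of -0.15. EMD, which encodes emerin, fell by 2.60, SUN2 by 1.59, LMNB2 by 1.48 and SYNE2 by 1.46. LMNA was not called, at 0.06.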

How the data were processed

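Ribosome-depleted total RNA of HCT116 cells was made into libraries with a stranded kit and sequenced paired-end, per the labels' protocols. The submitters' processing notes name bcl2fastq 2.20, STAR, DESeq2 and GRCh38; the counting program and its strand setting are not given in the sources used here. Per the file headers, the authors deposited for each gene and transcript an expected count (an estimated count that need not be whole, not normalized), the TPM and a posterior standard deviation of the count, which was at most 0.217% of the count for every nucleoporin gene. All 58780 gene IDs matched GENCODE release 29, which gave symbols, positions, transcripts and sequences. The 746 other entries were left out.

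Expected counts were rounded to whole numbers and filtered with filterByExpr, and the 19725 genes left went through edgeR 4.0.16, run in R 4.3.3 (TMM factors, glmQLFit, glmQLFTest, Benjamini-Hochberg adjustment). Standard errors derive from the F statistic. Transcripts with a mean share of at least 1% in genes with a mean of at least 100 counts were tested with limma 3.58.1 on the log-odds of the share, with an offset of 0.5 counts. DESeq2 1.42.0, TPM with pseudocounts of 1 and 0.1 and other settings were alternatives. Libraries of a group differed by a chi-square per degree of freedom of 25.9 to 395. At this depth any difference in preparation gives high values, so they cannot show biological replication. Each library counted as a replicate on the word of the labels. Numbered replicates paired by the correlation of their deviations from the group means (r = 0.861, 0.634 and 0.607), although DMSO replicate 3 also reached 0.607 with auxin replicate 2. The labels name biological replicates and no shared day.

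In simulated data the gene test found 53% of 100 genes set to change 2-fold and 26% of 100 set to 1.5-fold, with 10.2% false among the calls. No other gene was set to change, out of 19429, whereas 52.3% of all genes were called in the data. These rates may therefore not carry over to the data. A first simulation of transcript shares, drawn independently per transcript, recovered none and was rewritten to keep the spread of the real shares. The rewritten one also found 0% of 100 transcripts changed 2-fold and 100 changed 4-fold. With 1000 of each, 6.5% and 40.9% were found, with 3.29% false among the calls. A transcript that was not called may therefore still have changed.

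Members, gene lists and tests were chosen with earlier results of these data known. Values in every library are given for called genes of at least 2-fold, the next 4 lower and 4 higher, and the highest and lowest TPM, and transcripts are named at 10 points or more. Alternatives with GC-corrected offsets were chosen after seeing the data.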

Additional observations from a re-analysis of the deposited data

How the results depend on the processing

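No called nucleoporin gene changed sign in 19 alternatives, and AAAS, NUP188, NUP85, NUP210, GLE1, NUP43 and NUP107 stayed called in all. The call was lost in 12 alternatives for SEH1L, 11 for NUP88, 4 for NDC1 and 3 for SEC13. It was lost in 2 each for NUP205, NUP153, NUP58, RAE1, RANBP2 and AHCTF1. Higher calls, 5 as reported, numbered 10 with upper-quartile factors, 3 with library size only, 3 by DESeq2, 3 without the filter on low counts, 9 with the replicate block and 9 with the block and GC-corrected offsets. Leaving out 1 library gave 3 to 6 higher calls (3 without auxin replicate 2 or 3) and 11 to 13 lower. Lower calls, 12 as reported, were 20 with the block and GC-corrected offsets and 17 with the block alone. On log2(TPM + 1) and log2(TPM + 0.1), limma called 0 higher and 7 lower nucleoporin genes, and 970 and 1017 higher and 2966 and 3223 lower genes in all. The cause was not tested.

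Genes not called as reported were called the other way with GC-corrected offsets, at log2 fold changes of 0.23 for POM121, 0.35 for NUP62 and 0.21 for POM121C. With the block added these were 0.23, 0.35 and 0.22, and TPR, NUP133, NUP98 and NUPL2 were at -0.094, -0.15, -0.11 and -0.14.

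Higher transcript shares, 12 as reported, numbered 7 at a minimum mean share of 5%, where fewer transcripts are tested, and 2593 among all transcripts against 4154. Leaving out 1 library gave 6 to 9 higher nucleoporin transcripts, 2249 to 3691 higher and 1322 to 2458 lower of all. Apart from the losses given above, the replicate block ended no call of a named gene or transcript.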

Other observations

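The 250 bases before the RefSeq gene start were searched on both strands in 30 of the 33 nucleoporin genes that matched. CCGGAAG, a core of sites for ETS factors, was in 13 of 30 (43.3%), beside 8.52% of 35116 promoters and 13.1% of those of protein-coding genes tested. It was in 3 of 10 matched genes called lower and 2 of 4 called higher. Of the protein-coding promoters 61.9% held GGGCGG, which was in 12 of 30, and CCAAT was in 11 of 30, beside 33%. TATAAA was in 0 of 30, beside 6.31%. These motifs may overlap one another and are given as matches of letters, with no test. Each nucleoporin gene counts once, whereas the background counts promoters, 15976 for the 14154 protein-coding genes tested, so the shares are not on like units. The near-identical POM121 and POM121C both count among the 13 genes with CCGGAAG.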
